A study of Mus musculus with 24 samples.

Results

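Slc12a1, Slc12a3, Kcnj1 and Bsnd encode salt transporters and channels of the thick ascending limb and the distal convoluted tubule (DCT), Umod encodes the main secreted protein of the thick limb, and Wnk1, Wnk4, Stk39 and Klhl3 encode regulators of the cotransporters. These 9 genes were chosen by name, as transporters of both segments with their WNK-SPAK regulators, from the 55335 genes counted in each kidney. Levels are in CPM, counts brought to a common library size with the TMM method of edgeR, and tests took genes that came to 1 CPM or more in any kidney. Of the 16092 genes that did so, 9 were the genes described here, so every one of them was tested.

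RNA of whole kidneys was sequenced from 24 adult mice, 6 in each of 4 groups, to ask how loss of peroxisome biogenesis in the renal tubule affects kidneys of males and females. cKOm and cKOf mice were males and females of genotype Pex5lox/lox/Pax8-rtTA/LC1 that had received doxycycline (DOX) over 2 weeks, starting at 8 weeks of age. Ctrlm and Ctrlf mice were littermates of genotype Pex5lox/lox and had received DOX in the same way. All mice were bred on the C57BL/6J background, and tissue was collected 4 weeks after DOX ended. The labels put tissue collection at ZT9 (9 hours after light on) and, like the methods of the study, experiments in general at ZT3. The Pax8-rtTA transgene acts in cells of the renal tubule, whereas whole kidney also holds vessels, glomeruli and other cells in which Pex5 was not targeted. Single kidneys are named below by their labels, such as Ctrl_M5 for a Ctrlm and KO_F3 for a cKOf kidney.

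Cells of the thick ascending limb take up sodium, potassium and chloride through the cotransporter NKCC2, the product of Slc12a1, while potassium recycles through the channel ROMK and barttin, the product of Bsnd, takes part in the exit of chloride toward the blood. Cells of the DCT take up sodium and chloride through the thiazide-sensitive cotransporter NCC, the product of Slc12a3. WNK kinases activate the kinase SPAK, which phosphorylates and thereby activates both cotransporters, so much of the control of this pathway acts on proteins and cannot be read from RNA.

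The number of reads counted on genes ran from 19376152 to 28470831 per kidney. A count of 3, taken as the floor of detection, was 0.155 CPM in the kidney with the fewest reads, and this floor covers counting error only. The lowest value of any of the 9 genes in any kidney was 24.8 CPM, for Stk39 in KO_M1, far above the floor. Reads were counted over all exons of a gene and from all cells of the kidney, so fewer cells of a type and less RNA per cell cannot be told apart in any result below.

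Kidneys Ctrl_M1, Ctrl_M2, Ctrl_M3, Ctrl_M4 and KO_M4 stood apart from the rest by transcripts of hepatocytes. The mean log2 CPM of 12 hepatocyte markers was 4.79 to 5.22 in these 5 kidneys and at most 2.83 in every other kidney. Summed over the 12 markers, the level had a median of 713 CPM in Ctrlm kidneys (109 to 996) and 162 CPM in cKOm kidneys (133 to 563). In females the median was 99.8 CPM in Ctrlf (84.4 to 126) and 93.0 CPM in cKOf kidneys (61.6 to 137). The most abundant of the markers was Alb, at 322 ± 274 CPM in Ctrlm and 62.0 ± 84.8 CPM in cKOm kidneys (mean ± SD, n = 6), and none of the 12 was at 0 in any group. In cKOm against Ctrlm kidneys their median log2 fold change was -1.74, and 10 of 12 had an unadjusted p under 0.05 (edgeR), while 1 was called higher and 2 lower at an adjusted p under 0.05. None was called in females by edgeR, DESeq2 or limma-voom, where the median was -0.02 and 1 of 12 had an unadjusted edgeR p under 0.05. Where leaving out these 5 kidneys ends a call of the 9 genes, of Pex5 or of a gene named from the pathway lists, that is given, a setting that was chosen after seeing the data, and the part of these transcripts in the other results was not tested.

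Pex5, the targeted gene, ranged from 49.1 to 62.8 CPM in Ctrlm kidneys with a median of 53.4, and from 41.8 to 47.3 CPM in cKOm kidneys with a median of 43.0. No cKOm kidney reached the lowest Ctrlm value (log2 fold change -0.31, edgeR adjusted p = 0.0219). Its adjusted p was over 0.05 without Ctrl_M2 (log2 fold change -0.27), without KO_M4 (-0.30), without the 5 kidneys named above (-0.26), and with the hepatocyte score as a covariate (-0.32). In Ctrlf kidneys Pex5 ranged from 43.0 to 61.7 CPM with a median of 48.2, and in cKOf kidneys from 38.0 to 48.5 CPM with a median of 44.1. The female groups overlapped, and the log2 fold change of -0.21 was not called (edgeR adjusted p = 0.177, with cKOf kidneys lower in the mean). Reads were counted over all exons and from all cells, so these values do not measure how far Pex5 was deleted in the tubule. The study itself reported significantly less Pex5 mRNA in both sexes, with some full-length mRNA left in cKOf mice. It found almost no PEX5 protein in cKOm kidneys and a reduced amount in cKOf kidneys. By electron microscopy it saw nearly no peroxisomes in proximal tubules of either sex of cKO mice.

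Umod was the most abundant of the 9 transcripts per length and Stk39 the least. On the scale of mean CPM per kilobase of all annotated exons, Ctrlm kidneys held 762 of Umod, 255 of Slc12a1, 132 of Slc12a3 and 77.8 of Kcnj1. The regulators and barttin followed on the same scale, with 38.8 for Wnk4, 27.3 for Wnk1, 19.2 for Bsnd, 8.79 for Klhl3 and 5.85 for Stk39. The same order of mean levels was found in cKOm, Ctrlf and cKOf kidneys. Ranges of neighbours in this order overlapped for Slc12a3 and Kcnj1 in Ctrlm, for Wnk4 and Wnk1 in Ctrlm and Ctrlf, and for Wnk1 and Bsnd in Ctrlm, Ctrlf and cKOf kidneys, while within single kidneys the order held in 6 of 6 for each of these pairs, apart from Wnk1 and Bsnd in Ctrlf and cKOf kidneys (5 of 6 each).

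The order depended on the length used for genes with many annotated exons. Only 38.8% of the 11119 exonic bases annotated for Slc12a3 and 49.6% of the 22825 bases for Wnk1 lie in their longest transcript, against 82.2% for Slc12a1 and 99.3% for Wnk4. Per kilobase of the longest transcript, the mean level in Ctrlm kidneys was 339.8 for Slc12a3 and 310.5 for Slc12a1, so their order turned, with overlapping ranges in all 4 groups. Wnk1 also passed Wnk4 on that scale, with 55.0 against 39.1 in Ctrlm kidneys. Wnk1 has 26 annotated transcripts, among them kidney forms that lack the kinase domain, and counts per gene do not separate these forms.

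**Figure D1:**
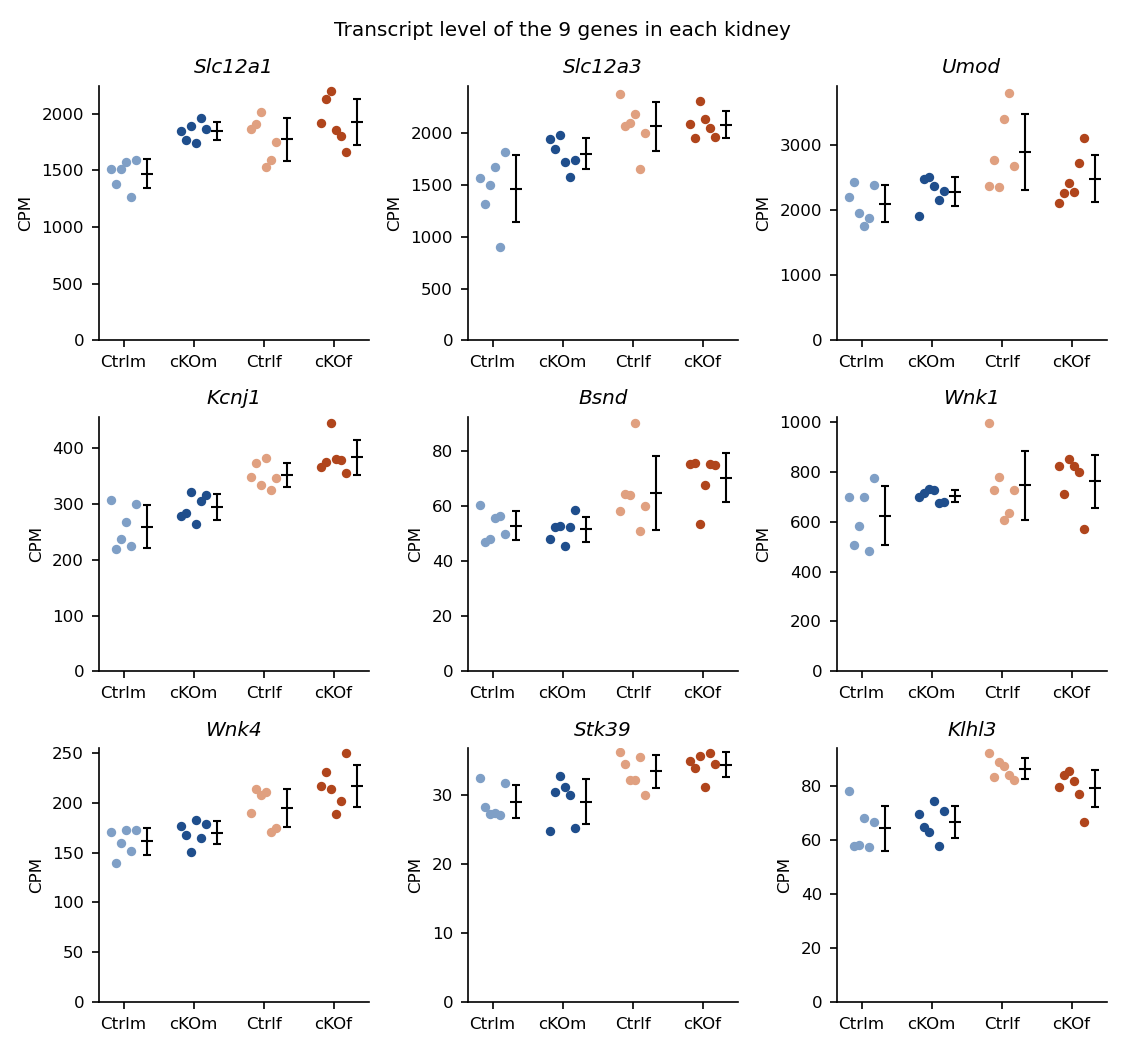
Transcript level in CPM (linear axis from 0) of each of the 9 genes in every kidney of the 4 groups; points are kidneys and bars the mean ± SD of 6 kidneys. All cKOm kidneys lie above all Ctrlm kidneys for Slc12a1, and all Ctrlf kidneys above all Ctrlm kidneys for Kcnj1 and Klhl3.

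Among males, deletion of Pex5 was accompanied by a higher level of Slc12a1 and by no called change in the other 8 genes. Of all genes tested in males, 4.14% were called higher in cKOm kidneys (edgeR, adjusted p under 0.05) and 9.05% in either direction, against 1 of the 9. The median log2 fold change was 0.12 over the 9 genes and 0.02 over all genes tested, and 8 of the 9 estimates were above 0, against 52.3% of all genes. Before adjustment, 3 of the 9 had a p under 0.05, as had 25.1% of all genes tested. The 9 genes thus held few calls, and their share was not far from the background of a comparison in which many transcripts moved.

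Slc12a1, which sets the uptake step of the thick limb, ranged from 1262 to 1587 CPM in Ctrlm kidneys with a median of 1511. In cKOm kidneys it ranged from 1741 to 1960 CPM with a median of 1856. Every cKOm kidney was above every Ctrlm kidney, a pattern shown by 3.69% of all genes tested. The log2 fold change was 0.33 (95% interval 0.16 to 0.49), a 1.25-fold difference, with an edgeR adjusted p of 0.0115 and higher values in 6 of 6 cKOm kidneys. An exact permutation test over the 924 arrangements of 6 kidneys against 6 gave p = 0.00217 (two-sided), the smallest value the design allows. The call held with each of the 24 mice left out. It was lost without the 5 kidneys of high hepatocyte transcripts, where the estimate was as large (log2 fold change 0.36, edgeR adjusted p = 0.169, 2 Ctrlm kidneys remaining). It was also lost with the hepatocyte score as a covariate (0.29, edgeR adjusted p = 0.128) and when every gene with a count was tested (0.30, edgeR adjusted p = 0.0925), over a range of 0.00363 to 0.169 for all alternatives. The share of reads off annotated genes also separated the male groups, at 6.48 to 8.296% in Ctrlm and 8.303 to 9.25% in cKOm kidneys. Within the male groups its r with Slc12a1 was 0.304 (n = 12), and its part in the rise was not tested.

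Slc12a3, the cotransporter of the DCT, had its lowest value in Ctrl_M5, at 902 CPM, and reached 1821 CPM in Ctrlm kidneys with a median of 1533. In cKOm kidneys it ranged from 1582 to 1983 CPM with a median of 1795. Ctrl_M5 lay far under the other Ctrlm kidneys, and 3 of 6 cKOm kidneys were above all Ctrlm kidneys. The log2 fold change of 0.30 (95% interval 0.07 to 0.53) did not pass the threshold (edgeR adjusted p = 0.151). Without Ctrl_M5 it was 0.19 (edgeR adjusted p = 0.287).

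Kcnj1, which encodes ROMK, ranged from 219.7 to 308 CPM in Ctrlm and from 264 to 321 CPM in cKOm kidneys, with medians of 252 and 295. Both groups overlapped, and the log2 fold change of 0.19 (95% interval 0.01 to 0.36) was not called (edgeR adjusted p = 0.266, with 2 of 6 cKOm kidneys above all Ctrlm kidneys). Umod, whose product uromodulin is secreted into the urine, had medians of 2080 CPM in Ctrlm and 2336 CPM in cKOm kidneys (ranges 1755 to 2440 and 1916 to 2518). Bsnd, which encodes barttin, had medians of 52.8 and 52.4 CPM, with the ranges of both groups nearly the same. The log2 fold changes were 0.12 for Umod (95% interval -0.12 to 0.36) and -0.04 for Bsnd (95% interval -0.26 to 0.19).

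The regulators were not called in males. Wnk1 ranged from 482 to 776 CPM in Ctrlm and from 673 to 730.0 CPM in cKOm kidneys, so the cKOm values lay inside the Ctrlm range. Wnk4 had medians of 165 and 172 CPM, and Klhl3, the adaptor that marks WNK kinases for breakdown, medians of 62.4 and 67.2 CPM. Stk39, which encodes SPAK, had medians of 27.8 and 30.1 CPM. Log2 fold changes of the 4 regulators ran from 0.00 for Stk39 (95% interval -0.16 to 0.16) to 0.17 for Wnk1 (95% interval -0.07 to 0.42), with edgeR adjusted p from 0.531 to 1 and overlapping groups throughout.

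In females, none of the 9 genes was called between cKOf and Ctrlf kidneys, where 0.851% of all genes tested were called (edgeR, adjusted p under 0.05). None of the 9 had an unadjusted p under 0.05, against 1083 of all genes tested, and DESeq2 and limma-voom also called none of the 9. The median log2 fold change was 0.04 over the 9 genes and 0.00 over all genes tested.

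Slc12a1 ranged from 1525 to 2011 CPM in Ctrlf kidneys with a median of 1806, and from 1662 to 2197 CPM in cKOf kidneys with a median of 1886. The groups overlapped over most of their ranges, and the log2 fold change was 0.12 (95% interval -0.04 to 0.28). Slc12a3 ranged from 1658 to 2383 CPM in Ctrlf and from 1953 to 2317 CPM in cKOf kidneys, with medians of 2087 and 2071. All cKOf values lay inside the Ctrlf range (log2 fold change 0.01, 95% interval -0.22 to 0.25). The estimate of Umod was below 0, from a median of 2732 CPM in Ctrlf (2357 to 3811) to 2359 CPM in cKOf kidneys (2111 to 3110), with 3 of 6 cKOf kidneys under all Ctrlf kidneys (log2 fold change -0.22, 95% interval -0.46 to 0.02).

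Kcnj1 had medians of 348 CPM in Ctrlf (326 to 382) and 377 CPM in cKOf kidneys (357 to 445), with a log2 fold change of 0.13 (95% interval -0.05 to 0.30). The highest cKOf value came from KO_F3, and the other cKOf kidneys lay inside the Ctrlf range. Klhl3 was below the Ctrlf median of 85.8 CPM in each of the 6 cKOf kidneys (66.8 to 85.7, Ctrlf 82.1 to 92.3), and 4 of them were under all Ctrlf kidneys. Its log2 fold change of -0.12 (95% interval -0.29 to 0.04) was not called (edgeR adjusted p = 0.506). Wnk4 had medians of 199 CPM in Ctrlf and 215 CPM in cKOf kidneys, with 4 of 6 cKOf kidneys above all Ctrlf kidneys (log2 fold change 0.16, 95% interval -0.01 to 0.32, edgeR adjusted p = 0.349). Bsnd, Wnk1 and Stk39 had log2 fold changes of 0.12, 0.03 and 0.04.

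Whether the genotype effect differed between the sexes was tested as an interaction, and none of the 9 genes was called, against 2.31% of all genes tested. DESeq2 and limma-voom called none of the 9 either, and 1 of the 9 had an unadjusted p under 0.05, against 2159 of all genes tested. That gene was Umod, with a difference of the female minus the male log2 fold change of -0.34 (95% interval -0.68 to -0.01, edgeR adjusted p = 0.363). For Slc12a1 the difference was -0.21 (edgeR adjusted p = 0.435; estimate 0.12 in females and 0.33 in males). The rise of Slc12a1 in males was therefore not shown to differ from the female estimate.

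**Figure D2:**
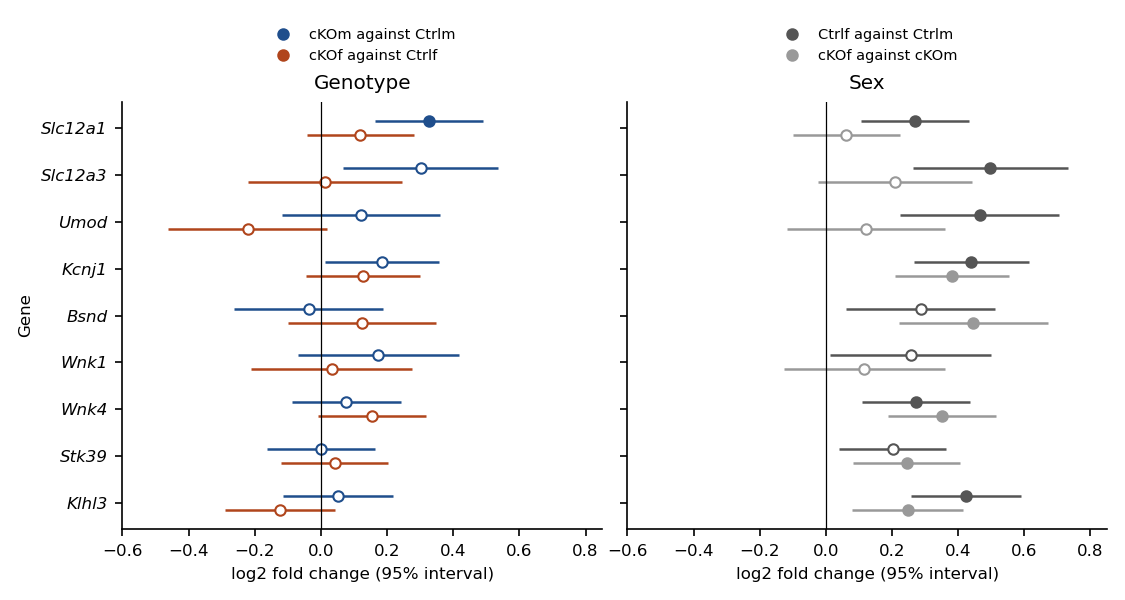
Log2 fold change of each of the 9 genes between genotypes (left) and between sexes (right), with 95% intervals as lines, n = 6 kidneys per group; filled points passed the edgeR threshold (adjusted p under 0.05) and open points did not. All estimates on the right are above 0, and on the left only Slc12a1 in males is filled.

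All 9 genes had higher estimates in females than in males of the same genotype. Of all genes tested, 54.85% had an estimate above 0 between the control groups and 51.5% between the cKO groups. At an unadjusted edgeR p under 0.05 there were 9 of the 9 between the control groups, against 28.1% of all genes tested. Between the cKO groups there were 5 of the 9, against 21.7%. In control kidneys, 6 of the 9 were called higher in Ctrlf than in Ctrlm, where 7.48% of all genes tested were called higher and 15.7% in either direction (edgeR, adjusted p under 0.05). With the hepatocyte score as a covariate 2 of the 9 were called there, and 3 without the 5 kidneys of high hepatocyte transcripts. The median log2 difference of Ctrlf from Ctrlm kidneys was 0.29 over the 9 genes and 0.03 over all genes tested. In cKO kidneys, 5 of the 9 were called higher in cKOf than in cKOm, where 4.92% of all genes tested were called higher and 9.72% in either direction. That count was 3 with the covariate, with every gene with a count tested, with adjustment within each test, and without KO_M1, KO_M5, KO_F1, KO_F2, KO_F3 or KO_F5. Here the median difference was 0.24 over the 9 genes and 0.01 over all genes tested. These comparisons share their kidneys with the comparisons of genotype, so their values stand side by side and are not compared by a test.

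The transporters of both segments were among those higher in Ctrlf kidneys. Slc12a3 had a log2 difference of 0.50 (95% interval 0.26 to 0.73), a 1.41-fold difference, with 5 of 6 Ctrlf kidneys above all Ctrlm kidneys (edgeR adjusted p = 0.00328). In cKO kidneys the difference was 0.21 and was not called, with 4 of 6 cKOf kidneys above all cKOm kidneys (edgeR adjusted p = 0.264). Kcnj1 differed in both genotypes without any overlap, by 0.44 between the control groups (edgeR adjusted p = 0.000504, higher in 6 of 6 kidneys; not called with the hepatocyte score as a covariate, 0.36, adjusted p = 0.0559) and by 0.38 between the cKO groups (edgeR adjusted p = 0.00233, higher in 6 of 6). Groups that do not overlap in this direction were seen for 2 of the 9 genes in control kidneys, against 3.40% of all genes tested, and for 2 of the 9 in cKO kidneys, against 3.24%.

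Slc12a1 was higher in Ctrlf than in Ctrlm kidneys by 0.27 on the log2 scale, with 5 of 6 Ctrlf kidneys above all Ctrlm kidneys (edgeR adjusted p = 0.0223). That call was lost without Ctrl_M5 (0.23), without Ctrl_F2 (0.25), without Ctrl_F3 (0.23), and without the 5 kidneys of high hepatocyte transcripts (0.30). It was also lost with every gene with a count tested (0.25), with only the kidneys compared (0.26) and with the hepatocyte score as a covariate (0.22), with adjusted p over all alternatives from 0.00968 to 0.275. Between the cKO groups the difference of Slc12a1 was 0.06 (edgeR adjusted p = 0.694), with medians of 1856 CPM in cKOm and 1886 CPM in cKOf kidneys. Umod was higher in Ctrlf kidneys by 0.46 (edgeR adjusted p = 0.00721, 4 of 6 above all Ctrlm kidneys), a call lost without the 5 kidneys (0.42, edgeR adjusted p = 0.159) and with the covariate (0.48), and by 0.12 in cKOf kidneys (edgeR adjusted p = 0.583). For Bsnd the difference was 0.29 between the control groups (edgeR adjusted p = 0.0878, 3 of 6 above all Ctrlm kidneys). With single mice left out that difference ran from 0.16 to 0.33, and Bsnd was called there only without Ctrl_F5 (0.33). Between the cKO groups Bsnd was called (0.45, edgeR adjusted p = 0.0061, 5 of 6 above all cKOm kidneys).

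The regulators followed the same direction. Klhl3 ranged from 57.6 to 78.0 CPM in Ctrlm and from 82.1 to 92.3 CPM in Ctrlf kidneys, so the control groups did not overlap (log2 difference 0.42, edgeR adjusted p = 0.000531, higher in 6 of 6). Between the cKO groups Klhl3 differed by 0.25, with 5 of 6 cKOf kidneys above all cKOm kidneys (edgeR adjusted p = 0.0436). Its call in cKO kidneys was lost without KO_M1 (0.26), KO_M2 (0.24), KO_M3 (0.23), KO_M5 (0.21), KO_F1 (0.25), KO_F2 (0.23), KO_F3 (0.22), KO_F4 (0.24) or KO_F5 (0.26). Leaving out Ctrl_F2, Ctrl_F3 or Ctrl_F6 also ended it, with 0.25 in each case, as did testing every gene with a count (0.25), adjustment within each test (0.25) and the hepatocyte score as a covariate (0.27), over a range of adjusted p from 0.0129 to 0.111 for all alternatives.

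Wnk4 was higher by 0.27 between the control groups (edgeR adjusted p = 0.0219, 5 of 6 above all Ctrlm kidneys) and by 0.35 between the cKO groups, which did not overlap (edgeR adjusted p = 0.00302, higher in 6 of 6). Its call in control kidneys was lost without Ctrl_M2 (0.23), Ctrl_F2 (0.24), Ctrl_F3 (0.25) or Ctrl_F4 (0.24), and without the 5 kidneys of high hepatocyte transcripts (0.24). It was also lost with every gene with a count (0.25), only the kidneys compared (0.26) and the covariate (0.31), over adjusted p from 0.0145 to 0.246. Stk39 had a difference of 0.20 between the control groups that was not called (edgeR adjusted p = 0.0946, 3 of 6 above all Ctrlm kidneys). Between the cKO groups Stk39 was called at 0.24 (edgeR adjusted p = 0.04, 5 of 6 above all cKOm kidneys). That call was lost without KO_M1 (0.20), KO_M5 (0.25), KO_M6 (0.21), KO_F1 (0.24), KO_F2 (0.25), KO_F3 (0.23), KO_F5 (0.23) or KO_F6 (0.24), and without the 5 kidneys (0.27). Every gene with a count (0.24), only the kidneys compared (0.25), adjustment within each test (0.24), the replicate block (0.24) and the covariate (0.24) also ended it, over adjusted p from 0.0229 to 0.107. Wnk1, the kinase at the head of the cascade, differed by 0.26 and 0.12 in the control and cKO groups and was called in neither (edgeR adjusted p = 0.174 and 0.608, with 2 of 6 Ctrlf kidneys above all Ctrlm kidneys).

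Ratios within a kidney do not depend on the scaling of libraries and set genes of the same or of neighbouring segments against each other. Log2 Slc12a1 to Umod, both of the thick limb, was -0.51 ± 0.23 in Ctrlm and -0.31 ± 0.18 in cKOm kidneys (mean ± SD, n = 6), a difference of 0.20 with overlap (two-sided exact permutation p = 0.110, 0.325 after adjustment over 6 ratio tests). Without Ctrl_M4 that difference was 0.27 (exact permutation p = 0.0217, 0.0649 after adjustment). In females the same ratio differed by 0.33 (exact permutation p = 0.162). Slc12a3 to Slc12a1 did not move with genotype in a way these tests could detect, with differences of 0.00 in males and -0.10 in females (exact permutation p = 0.994 and 0.323).

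Slc12a3 was also set against a single DCT marker, Pvalb, a calcium-binding protein of the early DCT. Pvalb had the lowest log2 fold change of 7 DCT markers in males, where the list ran from -0.62 to 0.55 with a median of -0.05, so the ratio speaks for Pvalb and not for the list. The log2 ratio was 6.57 ± 0.76 in Ctrlm and 7.45 ± 0.25 in cKOm kidneys (mean ± SD, n = 6), with 4 of 6 cKOm kidneys above all Ctrlm kidneys. The difference of 0.88 had a two-sided exact permutation p of 0.00649, and 0.0390 after adjustment over the 6 ratio tests. Ctrl_M5 had the lowest ratio of the Ctrlm kidneys, and without it the difference was 0.60 (exact permutation p = 0.0130, 0.0779 after adjustment over the 6 ratio tests). With each of the 12 male kidneys left out in turn, the adjusted p was under 0.05 in 1 of 12 tests (0.0260 to 0.0779). Neither gene was called alone in males, with a log2 fold change of -0.62 for Pvalb (edgeR adjusted p = 0.331), from a median of 15.4 CPM in Ctrlm to 9.81 CPM in cKOm kidneys. In females the ratio differed by 0.22 (exact permutation p = 0.604) with wide overlap. With single female kidneys left out, that difference ran from -0.04 (without Ctrl_F4) to 0.39 (without KO_F6).

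**Figure D3:**
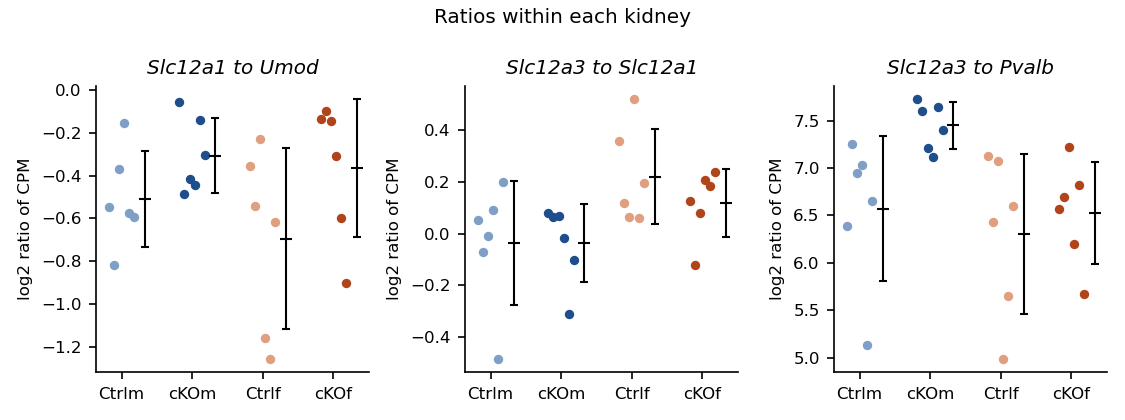
Log2 ratio of CPM within each kidney (vertical axis) for Slc12a1 to Umod, Slc12a3 to Slc12a1 and Slc12a3 to Pvalb in the 4 groups; points are kidneys and bars the mean ± SD of 6 kidneys. In the panel of Slc12a3 to Pvalb, 4 of 6 cKOm kidneys lie above all Ctrlm kidneys, and Ctrl_M5 is the lowest of the Ctrlm kidneys.

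Across kidneys, members of the pathway varied together in part. After subtraction of each group's mean, Pearson r of log2 CPM over the 24 kidneys ran from -0.535 to 0.717 for the 36 pairs of the 9 genes, with a median of 0.219, and 27 pairs were positive. Slc12a3 and Wnk1 were the closest pair (r = 0.717), followed by Slc12a1 and Wnk1 (r = 0.669) and by Wnk1 and Klhl3 (r = 0.637). Umod had r = -0.535 to Slc12a1 and r = -0.426 to Wnk1, the lowest of its values, and r = 0.401 to Stk39, the highest. These values describe kidneys that share a library scale and a cell mixture, and no test was made of them. Without subtraction of group means, 35 of the 36 pairs were positive, with a median of 0.556.

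**Figure D4:**
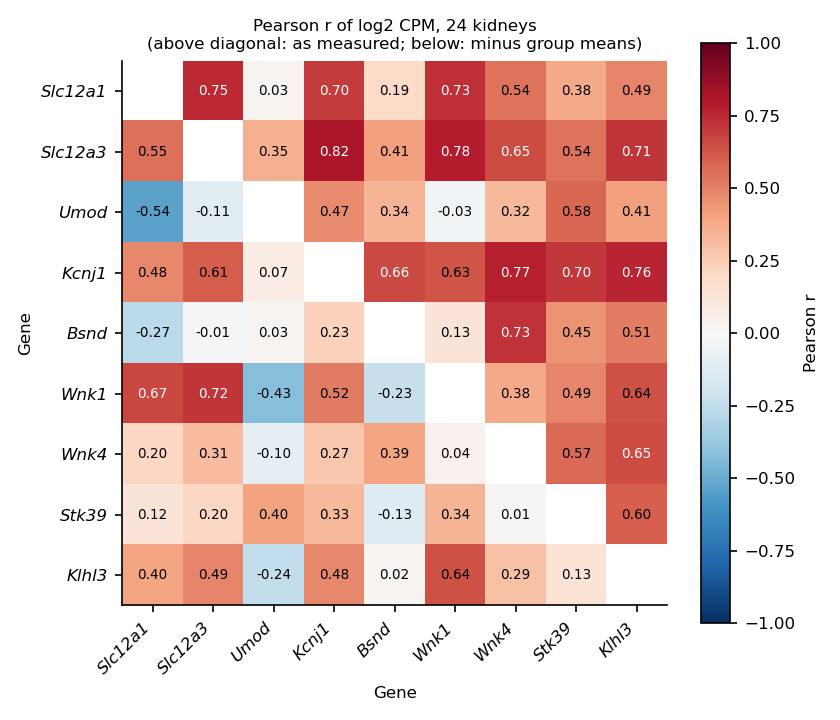
Pearson r of log2 CPM between each pair of the 9 genes over 24 kidneys, as measured (above the diagonal) and after subtraction of group means (below the diagonal), on a color scale from -1 to 1. Umod shows negative r to Slc12a1 and Wnk1 below the diagonal.

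Single kidneys were often extreme for several of the genes at once. Ctrl_M5 was the lowest of its group for 5 of the 9 genes (Slc12a1, Slc12a3, Wnk1, Stk39 and Klhl3), and Ctrl_M6 the highest for 4 (Slc12a1, Slc12a3, Wnk1 and Wnk4). KO_F3 was the highest cKOf kidney for 5 of the 9 (Slc12a1, Slc12a3, Kcnj1, Wnk1 and Klhl3) and the lowest for Bsnd, whereas KO_F6 was the lowest for 4 (Slc12a1, Kcnj1, Wnk1 and Klhl3) and the highest for Umod and Wnk4. After subtraction of group means, r of the share of reads off annotated genes with the 9 genes ran from -0.652 for Bsnd to 0.348 for Slc12a3 in males, and from -0.681 for Wnk4 to 0.676 for Wnk1 in females (n = 12 kidneys each). In females r was also -0.563 for Bsnd, -0.559 for Umod and 0.501 for Slc12a1. For the logarithm of the number of reads, r ran from -0.266 for Wnk4 to 0.454 for Umod in males. In females it ran from -0.523 for Slc12a3 to 0.669 for Umod. For the hepatocyte score, r ran from -0.326 for Bsnd to 0.369 for Klhl3 in males. In females it ran from -0.586 for Klhl3 to 0.301 for Bsnd. The part of the share of reads off annotated genes and of the number of reads in the results was not tested.

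Among 9430 tested genes with a mean of at least 10 CPM, those whose log2 CPM over the 24 kidneys was most like Slc12a1 were Iqgap2 (r = 0.945), Slc16a10 (r = 0.874) and Limch1 (r = 0.872). After subtraction of group means, r was 0.862 for Iqgap2, 0.658 for Slc16a10 and 0.699 for Limch1. Most like Slc12a3 were Dsg2 (r = 0.923), Nbeal2 (r = 0.921) and Casz1 (r = 0.90), and r after subtraction was 0.834, 0.820 and 0.852.

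A further list of 14 transport genes held no call between genotypes in males or in females by edgeR, DESeq2 or limma-voom, and none by the interaction. At an unadjusted edgeR p under 0.05 there were 4 of the 14 in males (25.1% of all genes tested), 1 in females (6.73%) and 2 by the interaction (13.4%). In males 1 of the 14 was called, as higher, with only the kidneys of the comparison in the fit, with adjustment within each test, without Ctrl_F4 and without KO_F6. Log2 fold changes of the 14 ran from -0.26 to 0.39 in males and from -0.25 to 0.21 in females. In Ctrlf against Ctrlm kidneys edgeR called 4 of the 14 higher and 1 lower. Of all genes tested, 7.48% were called higher there and 15.7% in either direction. Not every gene of this list that was called between the sexes is named. Among those higher in Ctrlf than in Ctrlm kidneys were Kcnj10, a basolateral potassium channel (log2 difference 0.55), Casr, the calcium-sensing receptor (0.57), and Cldn19, a claudin of the thick limb (0.39). Slc12a2, the cotransporter NKCC1, was lower in Ctrlf kidneys by 0.59, and which cells of the kidney its reads came from was not tested. The call of Cldn19 was lost without Ctrl_M6 (0.33), Ctrl_F2 (0.33) or Ctrl_F4 (0.31), and that of Casr without Ctrl_F3 (0.54). Both were also lost with only the kidneys compared in the fit (0.37 for Cldn19 and 0.56 for Casr) and without the 5 kidneys of high hepatocyte transcripts (0.43 and 0.83), and Casr with the hepatocyte score as a covariate (0.54).

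Between the cKO groups edgeR called 2 of the 14 transport genes higher in cKOf kidneys and 1 lower. Of all genes tested, 4.92% were called higher there and 9.72% in either direction. Kcnj10 was higher in cKOf kidneys by 0.31, and Slc12a2 was lower (-0.32). Slc12a2 lost its call without KO_M2 (-0.31), KO_M5 (-0.29), KO_M6 (-0.30), KO_F2 (-0.30), KO_F4 (-0.32) or KO_F6 (-0.23). For Slc12a2, leaving out Ctrl_M1, Ctrl_M3, Ctrl_M4, Ctrl_F1, Ctrl_F2 or Ctrl_F3 also ended the call, with -0.32 in each case. The same held with every gene with a count tested, with only the kidneys compared, with adjustment within each test, with the replicate block and without the 5 kidneys (-0.32 to -0.36), so 17 of 34 alternatives kept it.

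Regulators of WNK-SPAK signaling and of the cotransporters formed a list of 18 genes, of which edgeR called 1 in males (higher, as were 4.14% of all genes) and none in females, where 1 had an unadjusted p under 0.05 and DESeq2 and limma-voom called none. At an unadjusted edgeR p under 0.05 there were 6 of the 18 in males, against 25.1% of all genes tested. In males DESeq2 called 2 of the 18, Adcy6 and Nr3c2, the mineralocorticoid receptor (edgeR log2 fold change 0.41, adjusted p = 0.0636, not called). By the interaction none was called with any of the 3 tools, and 3 had an unadjusted edgeR p under 0.05. Adcy6, an adenylyl cyclase that makes cAMP in these segments, ranged from 172 to 242 CPM in Ctrlm kidneys with a median of 189.6. In cKOm kidneys Adcy6 ranged from 221 to 261 CPM with a median of 249. The groups overlapped, with 4 of 6 cKOm kidneys above all Ctrlm kidneys (log2 fold change 0.30, edgeR adjusted p = 0.0459). This call was lost without Ctrl_M2 (0.28), Ctrl_M3 (0.28), Ctrl_M5 (0.26), Ctrl_M6 (0.27), KO_M1 (0.29), KO_M2 (0.32), KO_M4 (0.31), KO_M5 (0.28) or KO_M6 (0.29). Leaving out 1 of 8 females, Ctrl_F1, Ctrl_F2, Ctrl_F4, Ctrl_F6, KO_F1, KO_F2, KO_F4 or KO_F5, also ended it, at 0.28 for Ctrl_F4 and 0.30 for the others. Without the 5 kidneys of high hepatocyte transcripts the log2 fold change of Adcy6 was 0.38 and was not called. Its call was also lost with RLE (0.28), every gene with a count (0.28), the filter of 1 CPM in 6 kidneys (0.28), only the kidneys compared (0.28), the replicate block (0.31) and the hepatocyte score as a covariate (0.30), over adjusted p from 0.0104 to 0.176.

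In Ctrlf against Ctrlm kidneys, edgeR, DESeq2 and limma-voom each called 3 of the 18 regulators higher and 3 lower, against 15.7% of all genes called in either direction by edgeR. Maged2, which promotes delivery of both cotransporters to the membrane, was higher by 0.57, Nedd4l, a ubiquitin ligase, by 0.34 and Adcy6 by 0.33. Cul3, the scaffold with which Klhl3 forms a ubiquitin ligase, was lower by 0.38, Klhl2, a relative of Klhl3, by 0.33 and Ppp3ca, a calcineurin subunit, by 0.29. Those values lie opposite to that of Klhl3 itself. With the hepatocyte score as a covariate, Adcy6 (0.33), Klhl2 (-0.26) and Ppp3ca (-0.32) lost their calls, and Klhl2 also without the 5 kidneys (-0.33). Between the cKO groups edgeR called 3 of the 18 higher and none lower (9.72% of all genes in either direction), while limma-voom also called Wnk2, a relative of Wnk1, lower. Those higher were Maged2 (0.51), the vasopressin receptor Avpr2 (0.51) and Ppp1r1a, an inhibitor of protein phosphatase (0.40), whose call was lost without KO_F6 (0.28) and without the 5 kidneys (0.38).

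Of 8 transcription factors of these segments, 2 rose in cKOm kidneys (edgeR), as did 4.14% of all genes tested. An unadjusted edgeR p under 0.05 was found for 3 of the 8 in males, against 25.1% of all genes tested. In females none was called by edgeR, DESeq2 or limma-voom, and none had an unadjusted edgeR p under 0.05. By the interaction none was called with these tools, and 2 had an unadjusted edgeR p under 0.05. Pou3f3, a factor of the thick limb, ranged from 79.0 to 106 CPM in Ctrlm kidneys with a median of 83.5, and from 103 to 142 CPM in cKOm kidneys with a median of 109.8. In 5 of 6 cKOm kidneys it was above all Ctrlm kidneys (log2 fold change 0.41, edgeR adjusted p = 0.0170). The call of Pou3f3 was lost without KO_M4 (0.34, edgeR adjusted p = 0.0597) and without the 5 kidneys (0.33, edgeR adjusted p = 0.305), over adjusted p from 0.00544 to 0.305.

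Tfap2b, a factor of the distal tubule, ranged from 49.4 to 72.7 CPM in Ctrlm kidneys with a median of 58.8, and from 75.2 to 87.0 CPM in cKOm kidneys with a median of 78.8. The groups did not overlap (log2 fold change 0.39, edgeR adjusted p = 0.0240, higher in 6 of 6). Its call was lost without Ctrl_M2 (0.37), Ctrl_M3 (0.38), Ctrl_M5 (0.33), Ctrl_M6 (0.34), KO_M4 (0.36) or KO_M6 (0.37), and without the 5 kidneys (0.53), over adjusted p from 0.0117 to 0.0696. In Ctrlf against Ctrlm kidneys 4 of the 8 factors were higher (7.48% of all genes), namely Esrrb (0.64), Sall3 (0.54), Pou3f3 (0.51) and Tfap2b (0.45). Between the cKO groups Esrrb (0.57) and Sall3 (0.40) were higher (2 of 8, against 4.92% of all genes), and the call of Sall3 was lost without KO_M2 (0.41), KO_M3 (0.39), KO_M4 (0.37), KO_M5 (0.39), KO_F4 (0.34) or KO_F6 (0.35). Sall3 was also not called there by limma-voom (0.38), with every gene with a count (0.40) or without the 5 kidneys (0.37).

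Markers of the cells that hold these transporters were counted beside them, with the 9 genes left out. Of 7 thick limb markers, 2 rose in cKOm kidneys (4.14% of all genes did), Egf and Pou3f3, and none was called in females by edgeR, DESeq2 or limma-voom or had an unadjusted edgeR p under 0.05 (5 of the 7 are also on the pathway lists). In males the log2 fold change of Egf, the most abundant of them, was 0.33 (edgeR adjusted p = 0.00388), with every cKOm kidney above every Ctrlm kidney. Before adjustment, 3 of the 7 markers had an edgeR p under 0.05 in males, against 25.1% of all genes tested. The 7 markers summed to a median of 2194 CPM in Ctrlm (1839 to 2274) and 2567 CPM in cKOm kidneys (2357 to 2870), without overlap. In females the medians were 2837 CPM in Ctrlf (2632 to 3001) and 2808 CPM in cKOf kidneys (2455 to 2887). Egf made up most of these sums in males, at a mean of 1633 CPM in Ctrlm and 2057 CPM in cKOm kidneys. The median log2 fold change of the 7 was 0.01 in males (-0.31 to 0.41), against 0.02 over all genes tested, so the median of the list lay close to that of all genes. The part of the markers in its result was not tested.

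Of 7 DCT markers none was called between genotypes in either sex by edgeR, DESeq2 or limma-voom (3 of the 7 are also on the pathway lists), and 1 in males and 0 in females had an unadjusted edgeR p under 0.05. Their sum had a median of 666 CPM in Ctrlm (585 to 1075) and 841 CPM in cKOm kidneys (717 to 976). The most abundant of them by the mean was Calb1 in Ctrlm and Ctrlf and Tmem52b in cKOm and cKOf kidneys. In females the medians were 982 CPM in Ctrlf (892 to 1004) and 1019 CPM in cKOf kidneys (925 to 1261). By edgeR, Pvalb, Sall3 and Tmem52b, 3 of these 7, were higher in Ctrlf than in Ctrlm and in cKOf than in cKOm kidneys, where 7.48% and 4.92% of all genes were. Neither DESeq2 nor limma-voom called Pvalb between the control groups, where Ctrl_F4 was at 69.1 CPM beside a Ctrlf median of 22.3, and limma-voom did not call Sall3 between the cKO groups. Of the 7 thick limb markers, again by edgeR, Casr, Egf, Enox1 and Pou3f3 were higher in Ctrlf than in Ctrlm, and Enox1 in cKOf than in cKOm kidneys. Of 4 macula densa markers edgeR called none in any comparison, and DESeq2 and limma-voom called none between genotypes, where 0 in males and 1 in females had an unadjusted edgeR p under 0.05, with medians of their sum from 22.7 to 27.6 CPM over the 4 groups and Avpr1a the most abundant.

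Markers of the proximal tubule moved in both directions in males, with a median log2 fold change of -0.06. Of 10 such markers, 4 fell in cKOm kidneys (Aqp1, Lrp2, Slc22a6 and Slc34a1) by edgeR, DESeq2 and limma-voom, where edgeR called 789 of 16092 genes lower and 9.05% in either direction. Before adjustment, 5 of the 10 had an edgeR p under 0.05 in males, against 25.1% of all genes tested. Slc5a12, a lactate transporter, was higher by 0.63 without overlap, a rise called by DESeq2 and limma-voom and not by edgeR (adjusted p = 0.0512). None of the 10 was called in females by edgeR, DESeq2 or limma-voom, where 2 had an unadjusted edgeR p under 0.05. Their sum had a median of 11910 CPM in Ctrlm (11260 to 12670) and 10620 CPM in cKOm kidneys (10110 to 11190), without overlap, with Slc34a1 the most abundant at 3751 ± 353 and 2978 ± 224 CPM (mean ± SD, n = 6). In females the medians were 12070 CPM in Ctrlf (11780 to 13380) and 11780 CPM in cKOf kidneys (10970 to 12530). CPM is a share of a fixed total, and the part of these markers in the result of Slc12a1 was not tested.

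Markers of other cells were mostly not called between genotypes. Of 7 markers of principal and connecting cells Scnn1b rose in males. Of 6 markers of intercalated cells Slc26a4 rose and Slc4a1 fell in males, and Slc4a1 fell in females. By edgeR, 9.05% of all genes tested were called in males and 0.851% in females, in either direction. DESeq2 and limma-voom called a further intercalated cell marker, Slc4a9, higher in males. None of 5 podocyte, 6 endothelial, 4 fibroblast and mural, or 4 leukocyte markers was called in either sex by edgeR or limma-voom, while DESeq2 called the endothelial gene Emcn lower in males. At an unadjusted edgeR p under 0.05 there were 4 of 7 principal and connecting and 4 of 6 intercalated cell markers in males. There were also 1 podocyte, 1 endothelial, 1 fibroblast and mural and 3 leukocyte markers, against 25.1% of all genes tested. In females there were 1 intercalated cell and 3 leukocyte markers, against 6.73%. Principal and connecting cell markers summed to a median of 329 CPM in Ctrlm (305 to 347) and 360 CPM in cKOm kidneys (321 to 402). For intercalated cell markers the medians were 289 CPM in Ctrlm (253 to 314) and 313 CPM in cKOm kidneys (307 to 390). The leukocyte markers had a median log2 fold change of -0.69 in males, and their sum had a median of 209 CPM in Ctrlm (169 to 311) and 129 CPM in cKOm kidneys (111 to 180.3), with Cd74 the most abundant. In females the median log2 fold change was -0.67, with a median sum of 179.9 CPM in Ctrlf and 142 CPM in cKOf kidneys (122 to 224). Ctrl_F1 stood apart there with 1146 CPM, against 146 to 217 CPM in the other Ctrlf kidneys, and was also the highest Ctrlf kidney for Slc12a3, Wnk1, Stk39 and Klhl3, a pattern whose part in the results was not tested. No gene of any marker list was at 0 in a whole group.

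In the comparisons of sex, several marker lists held edgeR calls, in both directions. In Ctrlf against Ctrlm kidneys, where 15.7% of all genes were called, 3 of 7 principal and connecting cell markers, 2 of 6 intercalated cell markers and 4 of 5 podocyte markers were higher, 2 of 10 proximal tubule markers were higher and 2 lower, and 11 of 12 hepatocyte markers were lower. In cKOf against cKOm kidneys, where 9.72% of all genes were called, 6 of 7 principal and connecting cell markers and 1 each of the podocyte, endothelial, and fibroblast and mural markers were higher. There, 3 of 10 proximal tubule markers were higher and 1 lower, and 3 of 12 hepatocyte markers were lower. The part of these cells in the sex differences of the 9 genes was not tested.

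By position the genes are scattered over the genome of GRCm38. Slc12a1 (ENSMUSG00000027202) lies at chr2:125152505-125230002 and Slc12a3 (ENSMUSG00000031766) at chr8:94329201-94366214, both on the plus strand. Kcnj1 (ENSMUSG00000041248) lies at chr9:32372493-32399197 on the plus strand, Umod (ENSMUSG00000030963) at chr7:119462711-119479282 and Bsnd (ENSMUSG00000025418) at chr4:106483456-106492283, both on the minus strand. Of the regulators, Wnk4 (ENSMUSG00000035112) lies at chr11:101260567-101277409 on the plus strand and Klhl3 (ENSMUSG00000014164) at chr13:58000228-58113592 on the minus strand. Stk39 (ENSMUSG00000027030) lies at chr2:68210445-68472268 and Wnk1 (ENSMUSG00000045962) at chr6:119923969-120038672, both on the minus strand. Wnk1 is the only one of the 9 on the chromosome of Pex5 (ENSMUSG00000005069, chr6:124396816-124415067), 4.36 megabases away from it, and it was not called in any of the comparisons.

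For Umod and Wnk4, some exonic bases are shared with an annotated antisense gene. Umod shares 539 bases with Gm44588, which had 4011 reads over all kidneys against 1321228 for Umod. Wnk4 shares 306 bases with Gm11615, which had 157 reads against 98315 for Wnk4. The library kit was stranded, but the labels do not say whether the counting used the strand.

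Promoters are shown for Slc12a1, which rose in males, and for Slc12a3, Umod, Kcnj1, Wnk4 and Klhl3, which with Slc12a1 were higher in Ctrlf kidneys, to let a reader compare the starts of all 6 genes called between the control groups. Sequences come from the promoter table of RefSeq on GRCm38.p6, in which 8 of the 9 genes were found and Bsnd was not. Windows of 250 bases before the RefSeq start were searched on both strands for GTTAAT (HNF1 half-site), AAGGTCA (estrogen-related receptor), AGAACA (half-site of androgen and glucocorticoid receptors), GCCNNNGGC (TFAP2) and TATAAA (the core promoter box bound by TBP), motifs that were chosen with the data known and of which none overlaps another in the sequences printed. Of 32851 promoters in the table, 6.43% hold GTTAAT, 4.08% AAGGTCA, 16.1% AGAACA, 13.7% GCCNNNGGC and 12.4% TATAAA. A match is a description of letters and not a site in use. Bases that fall in annotated exons were removed before printing, each run reads 5′ to 3′ on the strand of the gene, and capitals mark the motifs found.
Slc12a1: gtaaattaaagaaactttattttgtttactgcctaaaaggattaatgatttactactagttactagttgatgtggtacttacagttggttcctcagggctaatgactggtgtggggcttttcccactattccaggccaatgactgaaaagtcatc
Slc12a3: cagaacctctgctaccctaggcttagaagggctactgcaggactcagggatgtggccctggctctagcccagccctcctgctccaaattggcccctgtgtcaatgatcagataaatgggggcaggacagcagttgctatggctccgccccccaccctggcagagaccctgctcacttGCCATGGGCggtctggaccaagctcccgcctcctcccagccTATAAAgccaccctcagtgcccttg
Umod: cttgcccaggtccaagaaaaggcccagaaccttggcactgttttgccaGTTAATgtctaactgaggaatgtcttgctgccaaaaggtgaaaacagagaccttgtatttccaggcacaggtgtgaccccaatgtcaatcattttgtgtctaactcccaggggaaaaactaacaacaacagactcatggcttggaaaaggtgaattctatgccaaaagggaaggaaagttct
Kcnj1: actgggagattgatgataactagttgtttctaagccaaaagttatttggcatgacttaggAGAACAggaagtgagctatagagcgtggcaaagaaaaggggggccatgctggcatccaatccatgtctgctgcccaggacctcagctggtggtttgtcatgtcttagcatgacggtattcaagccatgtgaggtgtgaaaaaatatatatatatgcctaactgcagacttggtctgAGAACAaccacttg
Wnk4: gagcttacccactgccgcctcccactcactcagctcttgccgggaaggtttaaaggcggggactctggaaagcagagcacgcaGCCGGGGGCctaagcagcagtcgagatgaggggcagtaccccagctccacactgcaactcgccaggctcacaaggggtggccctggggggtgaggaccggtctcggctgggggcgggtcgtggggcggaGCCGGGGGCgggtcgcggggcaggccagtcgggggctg
Klhl3: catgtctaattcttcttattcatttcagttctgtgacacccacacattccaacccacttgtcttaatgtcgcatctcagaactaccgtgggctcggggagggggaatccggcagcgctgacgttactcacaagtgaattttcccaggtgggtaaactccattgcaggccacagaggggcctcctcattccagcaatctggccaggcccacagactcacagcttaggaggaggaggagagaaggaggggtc

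The printed stretches are chr2:125152350-125152504 (plus strand) for Slc12a1, chr8:94328958-94329200 (plus) for Slc12a3, chr7:119479283-119479512 (minus) for Umod, chr9:32393735-32393984 (plus) for Kcnj1, chr11:101260317-101260566 (plus) for Wnk4 and chr13:58113648-58113897 (minus) for Klhl3. Umod held GTTAAT once, Kcnj1 held AGAACA at 2 places, and Slc12a3 held both GCCNNNGGC and TATAAA. In the window of Wnk4 GCCNNNGGC was found at 2 places, and in those of Wnk1 and Stk39 at 1 place each. No motif searched was found in the windows of Slc12a1 and Klhl3, and AAGGTCA was found in none of the 8.

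The windows of the 8 genes differed in their content of CpG dinucleotides, against a median of 6 per window over the table. Umod held 0 CpG, Kcnj1 2, Slc12a3 3 and Slc12a1 4, all under that median. Klhl3 was at the median with 6, whereas Wnk4 held 17, Wnk1 26 and Stk39 43, in a window that lies wholly in annotated exon. The share of G and C ran from 39.6% for Slc12a1 to 82.4% for Stk39, with a median of 52.4% over the table.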

How the data were processed

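Counts of reads per gene were deposited by the authors, 1 file per kidney, without normalization. Per the labels, the authors trimmed reads with cutadapt 1.8, aligned them with STAR 2.5.3a to GRCm38 and counted them with HTSeq 0.9.1. Closing lines for reads not counted on a gene, 34.0 to 41.5% of the total, were set aside. They hold reads off annotated genes, ambiguous reads and, as the largest part, reads without a unique alignment. Of 55335 genes, 55154 were named by the GENCODE annotation of GRCm38.

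Analysis used R 4.3.3 with edgeR 4.0.16: genes reaching 1 CPM in any kidney, TMM, 1 fit of 4 groups and quasi-likelihood tests. Adjustment by Benjamini-Hochberg, at 0.05, ran over the male and female genotype tests together, over both tests of sex together, and over the interaction alone. Single values and ratios used log2 CPM (prior count 2) and exact permutation tests. Python 3.11.15, pandas 2.3.3, numpy 2.4.6, scipy 1.17.1 and matplotlib 3.10.9 made the summaries. The fit was tested on simulated data.

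Alternatives were DESeq2 1.42.0, limma-voom (limma 3.58.1), RLE, no filter beyond a single count, a filter of 1 CPM in 6 kidneys, only the kidneys compared, adjustment within each test, the replicate number as a block, a covariate for the hepatocyte score, leaving out each mouse, a prior count of 0.5 for ratios, the longest transcript for lengths and, added after seeing the data, no kidneys with a hepatocyte score over 4.

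The 9 genes, 3 pathway lists and 11 marker lists were chosen with earlier results of these data known. Named are the 9 genes, Pex5, called genes of the pathway lists (not all), called or most abundant genes of marker lists, and the 3 genes most like Slc12a1 and Slc12a3. Genes of pathway and marker lists called between the sexes, and single values of Pvalb, were chosen after their values were seen. So were Nr3c2, Emcn, Slc5a12, Slc4a9 and Wnk2, called by other tools and not by edgeR in the comparison where each is named. The metabolome and other experiments of the study were not analysed.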

Additional observations from a re-analysis of the deposited data

Results flagged for a closer look

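In 40 sets of 6 kidneys (the 9 genes and Pex5 in 4 groups), 3 had a highest or lowest kidney whose gap to the nearest other one was large beside the whole range, and chance gives about 1 in 20. Kcnj1 was highest in KO_F3, at 445.0 CPM against 357 to 381 CPM in the other cKOf kidneys (gap of 0.721 of the range). Bsnd was highest in Ctrl_F4, at 90.2 CPM against 51.0 to 64.3 CPM in the other Ctrlf kidneys (0.661 of the range). Bsnd was lowest in KO_F3, at 53.4 CPM against 67.7 to 75.6 CPM in the other cKOf kidneys (0.643 of the range).

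For Egf, a growth factor precursor made in the thick limb and the DCT, the genotype effect differed between the sexes. The female minus the male log2 fold change was -0.39 (95% interval -0.60 to -0.19, edgeR adjusted p = 0.0338). In males the log2 fold change was 0.33, with 6 of 6 cKOm kidneys above all Ctrlm kidneys, and in females it was -0.06, with overlap. None of the 9 genes was called by this test.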

How the results depend on the processing

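The 9 genes in 5 comparisons gave 45 results, with 1512 values over the alternatives, of which 1460 kept their direction or stayed uncalled on the same side of the threshold. A call was lost in 50 values and gained in 2, no called estimate turned its sign, and 27 estimates near 0 changed sign in 5 uncalled results (Bsnd and Stk39 in males, Slc12a3 and Wnk1 in females, and Stk39 by the interaction). Where a call was lost or gained, the cause was not tested.

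With every gene with a count tested, calls were lost for Slc12a1 in males (log2 fold change 0.30), Slc12a1 (0.25) and Wnk4 (0.25) between control groups, and Stk39 (0.24) and Klhl3 (0.25) between cKO groups. With the hepatocyte score as a covariate, they were lost for Slc12a1 in males (0.29), Slc12a1 (0.22), Umod (0.48), Kcnj1 (0.36) and Wnk4 (0.31) between control groups, and Stk39 (0.24) and Klhl3 (0.27) between cKO groups. Without the 5 kidneys of high hepatocyte score, chosen after seeing the data, they were lost for Slc12a1 in males (0.36), Slc12a1 (0.30), Umod (0.42) and Wnk4 (0.24) between control groups, and Stk39 (0.27) between cKO groups. With only the kidneys compared in the fit, calls were lost for Slc12a1 (0.26) and Wnk4 (0.26) between control groups and Stk39 (0.25) between cKO groups, and gained for Slc12a3 (0.21) between cKO groups. Adjustment within each test ended the calls of Stk39 (0.24) and Klhl3 (0.25) between cKO groups. With the replicate number as a block, Stk39 (0.24) lost its call between cKO groups. That number pairs different mice, whose profiles did not move together (r from -0.199 to 0.118).

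With each mouse left out in turn, Slc12a1 in males stayed called at 0.29 to 0.35. Between control groups the estimates were 0.23 to 0.30 for Slc12a1, 0.16 to 0.33 for Bsnd and 0.23 to 0.30 for Wnk4. Between cKO groups they were 0.20 to 0.28 for Stk39 and 0.21 to 0.29 for Klhl3, and each of these 5 results was called in part of the fits.

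Over all genes tested, 1456 were called in males, 866 with the covariate and 593 without the 5 kidneys. In females 137 were called, 43 with adjustment within each test and 83 without the 5 kidneys. Between control groups 2519 were called, 1392 with the covariate and 1475 without the 5 kidneys. The interaction called 372, and 574 by DESeq2. The lowest level of the 9 genes was 24.8 CPM.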
